A study of Mus musculus with 18 samples.

Results

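The effect of partial thyroidectomy was compared between 2 populations of mouse thyroid cells, and the genes whose change after surgery differed most between them are described here. The side population is the small fraction of cells that pumps the DNA dye Hoechst out of the cell, and the main population is formed by the cells that keep the dye. For each gene the interaction is the change after surgery in the side population minus the change after surgery in the main population, on the log2 scale, so a positive value means a higher change in the side population. Genes were chosen by this interaction itself: its size had to hold with any 1 of 16 arrays left out, and the 4 changes of the single side population arrays could not overlap the 3 changes of the single main population arrays. With a smallest size of 1.5 (log2), 2 of 20255 genes met the rule (0.00987%), Gpnmb and Dcpp1. Because this left so few, the wider set with a smallest size of 1, which is a 2-fold difference, was taken up as well, with 16 genes (0.079%). These genes are a description of the largest and steadiest differences in these arrays, and no test is attached to them.

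The 4 groups were the side population after partial thyroidectomy (TSP, 4 arrays used), the control side population (CSP, 6 arrays), the main population after partial thyroidectomy (TMP, 3 arrays) and the control main population (CMP, 3 arrays). All came from thyroids of C57BL/6 mice of both sexes, which were digested with collagenase and dispase, and the cells were kept in culture for 2 days before sorting, so every value describes cultured cells. Verapamil, a blocker of the efflux pumps, was used to set the sort. The age of the mice, the time after surgery and the number of mice behind an array are not given in the sources used here. RNA of each sample was amplified, labelled with Cy5 and hybridised with a Cy3-labelled reference RNA from several tissues of Swiss Webster mice, with no dye swap. Levels are therefore log2 ratios of sample over that reference. They can be compared between arrays for 1 gene, not between genes. In RNA of a whole population, fewer cells of a type and less RNA per cell cannot be told apart. The arrays are described as biological replicates. Their number, 3 and 4 on the smaller sides, limits the precision.

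Loss of thyroid tissue can lower thyroid hormone, which raises thyrotropin, the pituitary hormone that drives the follicular cells to make hormone and to grow. Follicular cells carry thyroglobulin (Tg), C cells carry calcitonin (Calca), and the gland also holds endothelial cells, fibroblasts and macrophages. In several tissues the side population is enriched for progenitor cells, because such cells carry ABC efflux pumps, but differentiated cells with such pumps, among them endothelial cells, fall into the same gate.

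The labels of the populations were set against markers. The mean level of 16 measured follicular genes was between -0.86 and -0.02 on TSP arrays and between -0.48 and 1.03 on CSP arrays, against 2.01 to 2.25 on TMP arrays and 1.84 to 2.27 on CMP arrays. CSP 6 stood apart within its group, at 1.03 where the median of the CSP arrays was -0.43. TSP 1 and TSP 2 (means of 2.12 and 2.11) had the levels of the main population and are left out. The arrays lay on 5 slides, none of which held all 4 groups. On the 6 arrays of slides 1 and 5, between 38.8% and 51.2% of the spots were well above background in Cy5, against 59.4% to 72.0% on the 10 arrays of slides 2 to 4.

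Of 20255 genes tested with limma, 0 (0%) had an interaction with an adjusted p under 0.05. At an unadjusted p under 0.05 there were 121 (0.597%), of which 46 were positive and 75 negative. The change within the side population gave 0 calls (0%) and 695 genes at an unadjusted p under 0.05 (3.43%). The change within the main population gave 0 calls (0%) and 30 such genes (0.148%). An interaction of at least 1 in size was seen for 159 genes (0.785%), and the median size over all genes was 0.22. The median 95% interval reached 0.96 to either side, a factor of 1.94.

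Same-numbered TMP and CMP arrays shared a slide, and same-numbered arrays deviated together within both populations. A fit with the replicate number as a block within each population gave 0 interaction calls too, with 1089 of 20156 genes at an unadjusted p under 0.05. It gave 0 calls for the side and the main population change, with 2791 and 250 genes at an unadjusted p under 0.05. The median SE of the interaction was 0.31 with this block and 0.45 without it. Under that block 19 genes met the rule at a size of 1.5 and 147 at a size of 1. Among these 147 were 11 of the 16 genes described here.

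**Figure D1:**
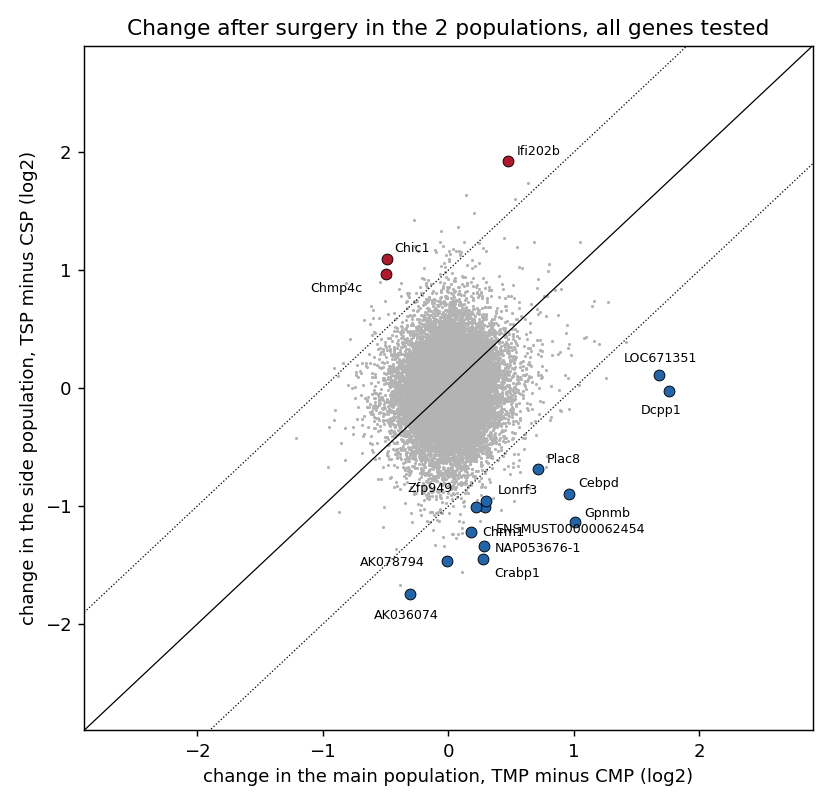
Change after surgery in the side population (TSP minus CSP, log2, vertical axis) against the change in the main population (TMP minus CMP, log2, horizontal axis), 1 point per gene for 20255 genes. The solid line marks equal change and the dotted lines an interaction of 1; the coloured points are the 16 genes chosen, 3 above the line (positive interaction) and 13 below it.

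Among the 16 genes the interaction was positive for 3 and negative for 13. Relative to its control, the side population after surgery was lower for 12 genes and the main population after surgery was higher for 12. TSP and CSP arrays did not overlap for 1 of 16 genes, where the share over all genes was 0.844%. TMP and CMP arrays did not overlap for 6 of 16 genes, where that share was 3.02%. The changes of single TSP and TMP arrays do not overlap for all 16, because the rule asked for this; over all genes the share was 5.94%. The rule used these values, so the counts are given as a description. Cebpd and Crabp1 lay just outside the size of 1.5, with smallest sizes of 1.48 and 1.40. Among genes with a symbol, Cdkl1 at 0.99 and Sqle at 0.98 lay just outside the size of 1. Of the 16 genes, 8 were well above background on at least 50% of the arrays of each group, and 11 have a gene symbol in the files.

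In 3 genes the populations differed in opposite directions by at least 0.5 each, with lower values after surgery in the side population and higher values after surgery in the main population. These were Gpnmb, Cebpd and Plac8. Chic1 and Chmp4c, with the directions the other way round, lay just under that size in the main population. Their changes were -0.487 and -0.497 there, and 1.09 and 0.96 in the side population.

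Gpnmb, which encodes a transmembrane glycoprotein made by macrophages, osteoclasts and pigment cells, had the interaction of largest size among all genes tested, at -2.14 ± 0.55 (SE). Values after ± are SEs of the limma fit without a replicate block, here and for the genes that follow. With the replicate number as a block within each population, the SE of the interaction differed by gene. It was 0.35 for Cebpd and 0.24 for Plac8, against 0.77 and 0.59 without the block, and 0.50 for Dcpp1, against 0.48. The Gpnmb probe lies on chromosome 6 at 49016437 to 49016496 of mouse build mm7. Levels were -0.61, -0.77, 0.08 and 0.38 on the TSP arrays, against a lowest, median and highest value of 0.16, 0.77 and 2.00 on the CSP arrays. Every TSP array but TSP 6 lay under every CSP array. Levels were 0.89, 0.50 and 0.42 on the TMP arrays, against -0.58, -0.21 and -0.41 on the CMP arrays. All TMP arrays lay above all CMP arrays. The change was -1.14 ± 0.34 in the side population and 1.01 ± 0.43 in the main population (SE). The probe was well above background on 1 of 4 TSP, 5 of 6 CSP, 3 of 3 TMP and 2 of 3 CMP arrays, and a second probe, never above background, gave -0.11. With 3 of 4 TSP arrays not well above background, the size of the interaction is not exact, and it moved with the processing. It was -3.97 with the scanner-processed signals and -1.55 with median centring in place of loess.

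The 300 bases around the annotated start of Gpnmb are shown because this gene had the largest interaction (RefSeq, build GRCm38.p6, chr6:49036268-49036567, plus strand). Capitals mark a match to the AP-1 motif TGANTCA, which starts 8 bases after the gene start:
Gpnmb: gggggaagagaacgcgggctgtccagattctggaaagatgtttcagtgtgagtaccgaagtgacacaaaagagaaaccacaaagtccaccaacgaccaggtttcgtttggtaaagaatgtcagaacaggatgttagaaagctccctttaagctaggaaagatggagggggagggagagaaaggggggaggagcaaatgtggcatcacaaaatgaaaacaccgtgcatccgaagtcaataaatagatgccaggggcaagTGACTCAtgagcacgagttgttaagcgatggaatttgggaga
Promoters of 250 bases before to 50 bases after the start were found for 8 of the 16 genes. The AP-1 motif was in 1 of these 8, against 8.97% of 27025 genes with a promoter. The C/EBP motif TTNNGCAA was in 1 of 8 (Plac8), against 12.2%, the E-box CACGTG in 1 of 8 (Lonrf3), against 8.09%, and TATAAA in 2 of 8 (Lonrf3 and Ifi202b), against 15.7%. Both strands were searched, and a match of letters does not show that a factor binds.

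Macrophage genes were looked at beside Gpnmb. Of 20 macrophage and pan-leukocyte genes, 18 were higher in TSP than in CSP, against 9877 of 20255 genes in all. The number higher in TMP than in CMP was 18, against 10150 in all. None of the 20 was called. The mean level of this list lay between -3.38 and -1.96 on TSP arrays and between -3.06 and -2.47 on CSP arrays. It lay between -2.40 and -1.72 on TMP arrays and between -2.45 and -2.04 on CMP arrays. TSP 5 and TSP 6, both of slide 5, were at -2.37 and -1.96, above every CSP array. No CSP array lay on slide 5. On slide 3 the mean differed by -0.15 between TSP and CSP arrays, opposite in sign to the change of most of its genes. Between TMP and CMP arrays it differed by 0.72, 0.02 and 0.31 on slides 2, 4 and 5. The part of slide in these values was not tested. Adgre1, a surface antigen of macrophages, had levels of -1.74, -2.57 and -2.06 on TMP arrays, against -3.42, -2.81 and -2.93 on CMP arrays, with no overlap. TSP and CSP arrays of Adgre1 overlapped. For Csf1r and Cd68, also on this list, TMP and CMP arrays overlapped. Ptprc, the CD45 antigen of all leukocytes, was well above background on 1 of 4 TSP and 1 of 6 CSP arrays. It was so on all TMP and CMP arrays, and its TMP arrays lay above its CMP arrays. The part of macrophages in the Gpnmb values was not tested.

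Cebpd encodes C/EBP delta, a transcription factor that is induced in inflammation and early in fat cell differentiation (chromosome 16, 15431723 to 15431782, mm7). Its interaction was -1.86 ± 0.77. Levels were 3.38, 1.59, 2.19 and 1.07 on the TSP arrays, against a lowest, median and highest value of 1.35, 3.07 and 4.26 on the CSP arrays. The TSP arrays spread over the CSP range, apart from TSP 6, which was lower than every CSP array. Levels were 0.09, 1.25 and 0.15 on the TMP arrays, against -0.64, -0.24 and -0.52 on the CMP arrays. All TMP arrays were higher than all CMP arrays, and all side population arrays but TSP 6 were higher than all main population arrays. The change was -0.90 ± 0.48 in the side population and 0.96 ± 0.60 in the main population. The interaction was -1.03 after scaling between arrays and -2.80 with all 18 arrays. The latter adds TSP 1 and TSP 2, which had the levels of the main population and were at -1.06 and -0.48 for Cebpd.

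Plac8 encodes a small cysteine-rich protein found in placenta and in white blood cells (chromosome 5, 99768632 to 99768691, mm7). Its interaction was -1.39 ± 0.59. Levels were -1.75, -0.60, -1.87 and -0.97 on the TSP arrays, against a lowest, median and highest value of -1.87, -0.51 and 0.24 on the CSP arrays. These groups overlapped. Levels were -1.95, -1.49 and -1.60 on the TMP arrays, against -2.73, -2.29 and -2.17 on the CMP arrays, and these did not overlap. The change was -0.68 ± 0.36 in the side population and 0.71 ± 0.46 in the main population.

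**Figure D2:**
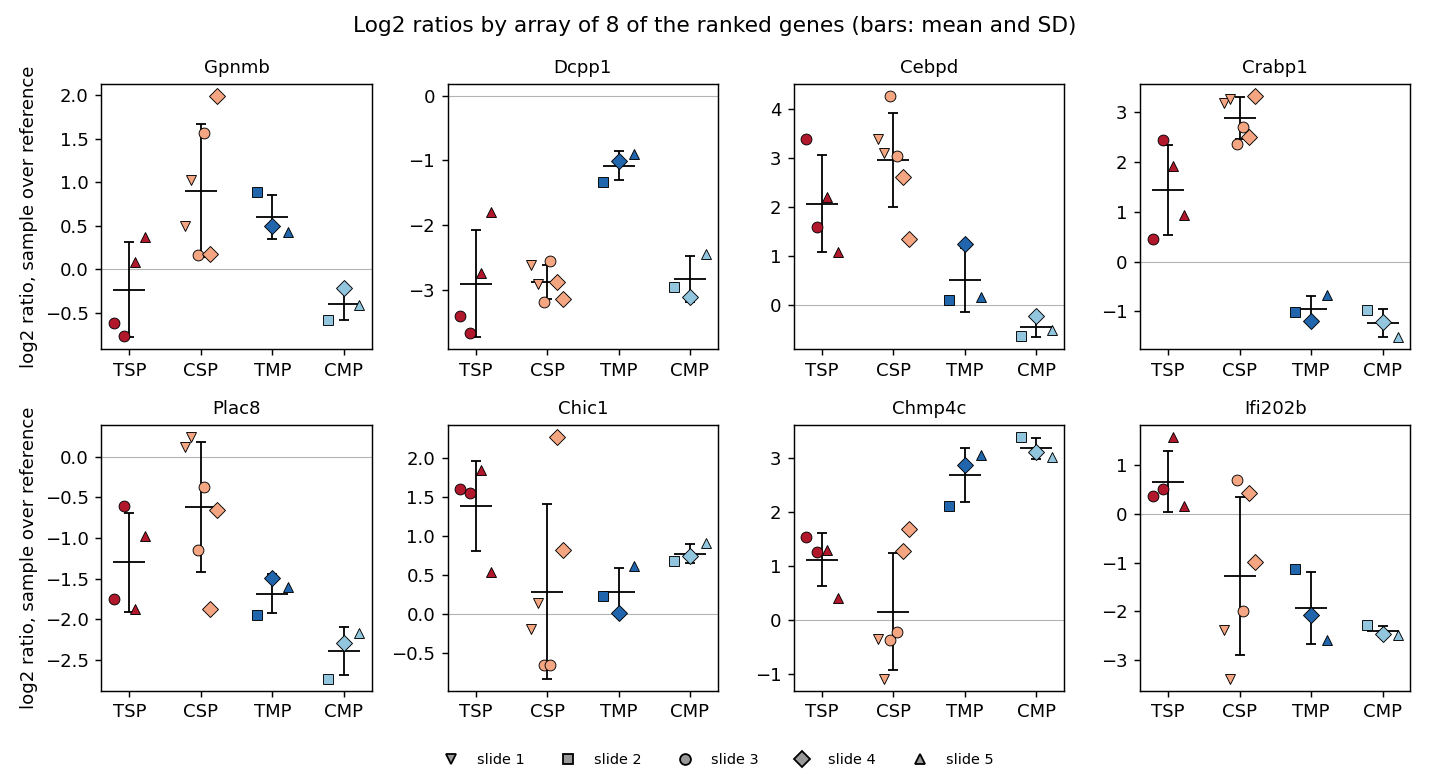
Level of 8 of the chosen genes (log2 of sample over reference, vertical axis) on each array of TSP, CSP, TMP and CMP; 1 point is 1 array, the marker shape gives the slide, and bars are the mean and SD. For Gpnmb, Cebpd and Plac8 the TMP arrays lie above the CMP arrays while the TSP mean lies below the CSP mean.

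In 2 genes, Dcpp1 and LOC671351, the larger of both changes was that in the main population, and the probe was not well above background on any TSP array. Dcpp1 encodes demilune cell and parotid protein 1, a protein secreted by salivary glands, and LOC671351 is annotated by the files as similar to common salivary protein 1. Both probes lie in the same stretch of chromosome 17 of build mm7, at 22062329 to 22062382 for Dcpp1 and at 22097921 to 22098962 for LOC671351. The family has near-identical copies, so the probes are shown to let their likeness be seen. All are 60 bases long, and capitals mark the longest run that a probe shares with the Dcpp1 probe used, which is printed first without capitals:
Dcpp1, probe used: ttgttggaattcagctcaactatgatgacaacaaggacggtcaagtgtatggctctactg
Dcpp1, probe 2: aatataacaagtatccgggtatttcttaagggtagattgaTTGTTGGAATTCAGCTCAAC
Dcpp1, probe 3: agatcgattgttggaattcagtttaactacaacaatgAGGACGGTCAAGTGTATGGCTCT
LOC671351: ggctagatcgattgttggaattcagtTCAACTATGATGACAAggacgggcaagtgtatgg
The longest shared runs had 20, 23 and 16 bases. These runs understate the likeness, since the LOC671351 probe shares further runs with the Dcpp1 probe on both sides of its capitals. In probe 2 the capitals are its end, which overlaps the start of the probe used. Binding of RNA from one copy to the probe of another was not tested. The values of these genes are therefore uncertain as to which copy they measure, and the 2 genes may not be separate measurements.

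Dcpp1 had levels of -3.41, -3.66, -2.74 and -1.81 on the TSP arrays, against a lowest, median and highest value of -3.19, -2.89 and -2.55 on the CSP arrays. The TSP arrays lay on both sides of the CSP arrays, with TSP 6 highest. Levels were -1.33, -1.02 and -0.90 on the TMP arrays, against -2.96, -3.12 and -2.44 on the CMP arrays. All TMP arrays were higher than all CMP arrays. The change in the main population was 1.76 ± 0.38, the one in the side population -0.02 ± 0.30, and the interaction -1.78 ± 0.48. The probe was well above background on 4 of 6 CSP, 3 of 3 TMP and 2 of 3 CMP arrays, and not well above background on any TSP array, so its TSP level is a bound. The other probes gave interactions of -1.61 and -0.76. The interaction was -2.52 without slide 5 and -3.32 with scanner-processed signals.

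LOC671351 had levels of -1.41, -1.51, -1.39 and -0.55 on the TSP arrays, against a lowest, median and highest value of -2.0, -1.42 and -0.16 on the CSP arrays, which overlapped. It had levels of 0.55, 0.59 and 0.59 on the TMP arrays, against -1.43, -0.81 and -1.08 on the CMP arrays, all TMP arrays being higher. The probe was well above background on 0 of 4 TSP, 1 of 6 CSP, 3 of 3 TMP and 2 of 3 CMP arrays, so the gene passed the filter mostly through the main population and its side population levels are bounds. The interaction of -1.57 takes those levels as measured and is no exact size. Among 9 measured salivary gland genes, a list added after the data were seen and holding Dcpp1 itself, 3 had a positive interaction and the median was -0.21. Their mean level was between -2.79 and -1.28 on TSP arrays and between -2.32 and -1.84 on CSP arrays, and between -2.02 and -1.45 on TMP arrays and between -2.37 and -1.79 on CMP arrays. The part of salivary tissue in these values was not tested.

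In 8 genes the interaction was negative and the larger of both changes was that in the side population. Those with symbols were Crabp1, Chrm1, Zfp949 and Lonrf3. In the main population the probe of Crabp1 was well above background on 0 of 3 TMP and 2 of 3 CMP arrays. For AK078794, AK036074 and NAP053676-1 it was so on 1 of 3 TMP and 2 of 3 CMP arrays. Main population levels of these genes are partly bounds, so a change there could be missed and their interactions are no exact sizes.

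Crabp1, which encodes a cytosolic retinoic acid binding protein, had an interaction of -1.72 ± 0.53 (chromosome 9, 54797711 to 54797770, mm7). Levels were 0.45, 2.44, 1.92 and 0.93 on the TSP arrays, against a lowest, median and highest value of 2.35, 2.94 and 3.33 on the CSP arrays. Of the TSP arrays only TSP 4 reached the CSP range. Levels were -1.02, -1.20 and -0.67 on the TMP arrays, where the probe was not well above background, against -0.97, -1.22 and -1.52 on the CMP arrays. The change in the side population was -1.45 ± 0.33. The interaction was -0.98 after scaling between arrays, -0.98 with scanner-processed signals and -0.94 with the values of the authors.

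Chrm1 encodes the muscarinic acetylcholine receptor M1, which couples to phospholipase C (chromosome 19, 8345143 to 8358063, mm7). Levels were 1.70, 1.72, 0.62 and 0.05 on the TSP arrays, against a lowest, median and highest value of 1.23, 2.09 and 3.28 on the CSP arrays. The slides differed within both groups, with the highest CSP levels on slide 1, and on slide 3 alone the change in the side population was -0.38. The interaction of -1.40 ± 0.67 was -0.56 within slides and -0.21 without slides 1 and 5.

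Zfp949, a zinc finger protein, was the one gene of the 16 whose TSP and CSP arrays did not overlap. Levels were 0.48, 0.66, 0.65 and 0.22 on the TSP arrays, against a lowest, median and highest value of 0.98, 1.34 and 2.47 on the CSP arrays. Its interaction was -1.23 ± 0.40, with a change of -1.0 ± 0.25 in the side population and 0.22 ± 0.32 in the main population. Lonrf3, a protein with a LON peptidase domain and a RING finger, had levels of 0.05, 0.54, 0.71 and 0.78 on the TSP arrays, against 0.41, 1.57 and 2.25 as lowest, median and highest on the CSP arrays. Its interaction was -1.26 ± 0.55, but its second probe gave 0.69, so the probes of this gene disagree. The mean of both probes gave -0.29.

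The other 4 of the 8 genes have no symbol in the files and are named by the sequence their probe was designed on. AK036074 had levels of -0.60, -0.98, 0.09 and 0.15 on the TSP arrays, against a lowest, median and highest value of 0.03, 1.52 and 3.04 on the CSP arrays. Its interaction was -1.44 ± 0.73, and -2.99 within slides. AK078794 had an interaction of -1.45 ± 0.75. In AK036074 and AK078794 the TMP and CMP arrays lay close together, with changes of -0.30 and -0.01 in the main population. Both probes were well above background on only 1 TMP and 2 CMP arrays, so this closeness does not show that there was no change. In the side population the AK036074 probe was well above background on 1 TSP and 4 CSP arrays. The AK078794 probe was so on 2 TSP and 5 CSP arrays. NAP053676-1 had an interaction of -1.62 ± 1.01, and -3.94 within slides. Its levels were 2.62 and 4.05 on CSP 3 and CSP 4, both of slide 3, and between -0.25 and 0.56 on the other CSP arrays. Its probe was not well above background on any TSP array. The last, ENSMUST00000062454, had an interaction of -1.30 ± 0.56.

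In 3 genes the interaction was positive, and in each the side population was higher after surgery. Chic1, which encodes a protein with a cysteine-rich hydrophobic domain, had an interaction of 1.58 ± 0.72 (chromosome X, 98718935 to 98718994, mm7). Levels were 1.60, 1.55, 1.84 and 0.54 on the TSP arrays, against a lowest, median and highest value of -0.65, -0.02 and 2.27 on the CSP arrays. CSP 5 was higher than every TSP array, and the groups overlapped. The probe was well above background on only 2 of the CSP arrays, but on all TSP, TMP and CMP arrays. CSP levels of Chic1 are therefore partly bounds, and its side population change and interaction are no exact sizes. Levels were 0.24, 0.01 and 0.61 on the TMP arrays, against 0.68, 0.74 and 0.91 on the CMP arrays, with no overlap. Its second probe gave 0.07. Within slides the interaction of Chic1 was 2.71, and it was one of 5 genes called in that alternative. That fit kept only the side population arrays of slide 3, so CSP 5 was left out. Chic1 was chosen on the same contrast, so this call is no test of it.

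Chmp4c encodes a subunit of ESCRT-III, the complex that cuts membrane necks in cell division and vesicle formation (chromosome 3, 10400871 to 10400930, mm7). Levels were 1.52, 1.25, 1.29 and 0.40 on the TSP arrays, against a lowest, median and highest value of -1.09, -0.30 and 1.69 on the CSP arrays. CSP 5 and CSP 6 lay among or above the TSP arrays, and the other CSP arrays lay below them. Levels were 2.11, 2.87 and 3.04 on the TMP arrays, against 3.39, 3.11 and 3.02 on the CMP arrays. The interaction was 1.46 ± 0.71, but 2 other probes gave -0.14 and 0.15.

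Ifi202b, an interferon-activated gene of the p200 family with near-identical copies, had the largest spread among the CSP arrays of the genes with a symbol. Levels were 0.37, 0.51, 1.57 and 0.16 on the TSP arrays, against a lowest, median and highest value of -3.38, -1.49 and 0.68 on the CSP arrays. The TSP arrays were high throughout, and CSP 3 and CSP 5 reached them. Levels were -1.13, -2.07 and -2.58 on the TMP arrays, against -2.27, -2.45 and -2.48 on the CMP arrays. The interaction of 1.45 ± 1.01 was 0.62 within slides and 0.14 without slides 1 and 5.

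The 16 genes were also read within slides. TSP and CSP arrays share slide 3, and TMP and CMP arrays share slides 2, 4 and 5. Taken on those slides alone, the interaction had the same sign for 16 of 16 genes and a size of at least 1 for 14 of 16. For Gpnmb the change on slide 3 was -1.56 in the side population, and the changes on slides 2, 4 and 5 were 1.47, 0.71 and 0.84 in the main population. For Dcpp1 they were -0.67 in the side population, against 1.63, 2.10 and 1.55 in the main population. These arrays were also used by the rule, so this is no independent check. Slide was otherwise unevenly spread over the groups, and the part of slide in the 16 genes was not tested beyond these values. Without surgery, the level in CSP was above that in CMP for 11 of the 16 genes, by 4.12 for Crabp1 and by 3.42 for Cebpd.

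**Figure D3:**
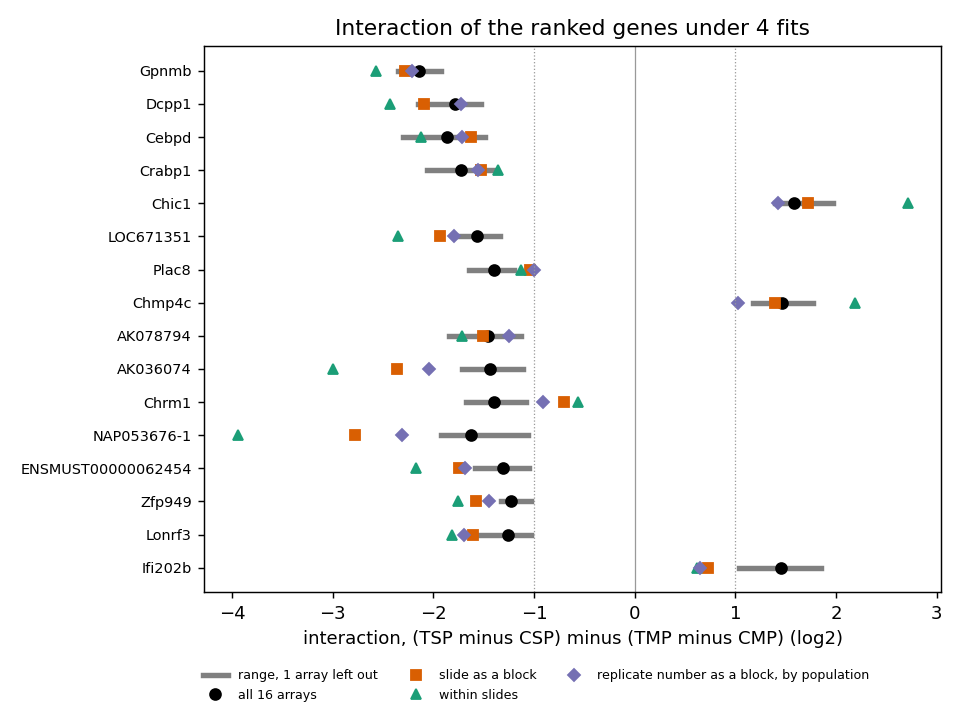
Interaction of the 16 genes (log2, horizontal axis), 1 row per gene: from all 16 arrays, its range with any 1 array left out (grey bar), with slide as a block, within slides only, and with the replicate number as a block within each population. All values of a gene lie on 1 side of 0, which the rule fixed in advance for the grey bars. Gpnmb is at -2.14 with all arrays and Chic1 at 1.58.

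Gene lists by function and by cell type were read next. Of 415 measured genes on 25 lists, 0 were called in the interaction, and 4 (0.964%) had an unadjusted p under 0.05, against 0.597% of all genes. These 4 were Sqle, Fosl1, Calca and Timp2. The medians of the lists lay between -0.57 and 0.61, against -0.01 over all genes.

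The cholesterol synthesis list had the most positive median, 0.61. Cholesterol is built from acetyl-CoA through mevalonate and squalene by enzymes that share control by the SREBP transcription factors, which act when sterols in the cell are low. All 17 measured genes had a positive interaction, against 9926 of 20255 genes in all. None of the 17 was higher in TMP than in CMP, with a median change of -0.60 in the main population, against 0.09 in the side population. No gene of the list was called. The mean level of the list was -1.54, -1.50, -1.19 and -0.74 on the TSP arrays, against a lowest, median and highest value of -1.88, -1.41 and -0.32 on the CSP arrays. It was -0.20, -0.14 and 0.29 on the TMP arrays, against 0.41, 0.63 and 0.69 on the CMP arrays. The TMP arrays were all lower than the CMP arrays, by 0.61, 0.77 and 0.40 within slides 2, 4 and 5, while TSP and CSP arrays overlapped. CSP 6 was the highest of the side population, and without it the median of the list was 0.75 above that of all genes.

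Along the pathway, Hmgcs1, which makes HMG-CoA, had levels of -1.33, -0.69 and -0.94 on the TMP arrays, against -0.02, 0.58 and -0.67 on the CMP arrays, and an interaction of 0.62 ± 0.48. Mvk, which phosphorylates mevalonate, and Mvd, which decarboxylates its diphosphate, had interactions of 0.60 ± 0.58 and 0.84 ± 0.74. Each of these was less than 2 SE from 0 in the fit without a replicate block.

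Sqle, which oxidises squalene on the way to the first sterol, had the largest value of the list, at 1.19 ± 0.50. Its levels were -1.59, -1.06, -1.18 and -0.92 on the TSP arrays, against a lowest, median and highest value of -2.84, -1.70 and -0.89 on the CSP arrays. They were 0.12, -0.05 and -0.22 on the TMP arrays, against 0.73, 0.72 and 0.20 on the CMP arrays, so the main population groups did not overlap.

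The promoter of Hmgcs1 is shown because it was the one of 11 cholesterol genes with a promoter in the table that held the sterol element searched, TCACNCCAC (RefSeq, build GRCm38.p6, chr13:119690101-119690400, plus strand). Capitals mark that element, 137 bases before the gene start, and 4 matches to CCAAT, all on the minus strand and so written ATTGG:
Hmgcs1: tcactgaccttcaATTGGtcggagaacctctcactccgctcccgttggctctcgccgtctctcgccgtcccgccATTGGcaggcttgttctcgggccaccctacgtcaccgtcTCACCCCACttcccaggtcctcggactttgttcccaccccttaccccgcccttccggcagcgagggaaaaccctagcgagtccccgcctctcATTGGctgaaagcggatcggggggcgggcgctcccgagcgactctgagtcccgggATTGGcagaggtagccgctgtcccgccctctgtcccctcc
The sterol element, searched on both strands, was in 1.44% of all genes with a promoter. CCAAT was in 11 of 11 cholesterol genes, against 41.1% of all genes and 2 of 8 of the ranked genes.

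**Figure D4:**
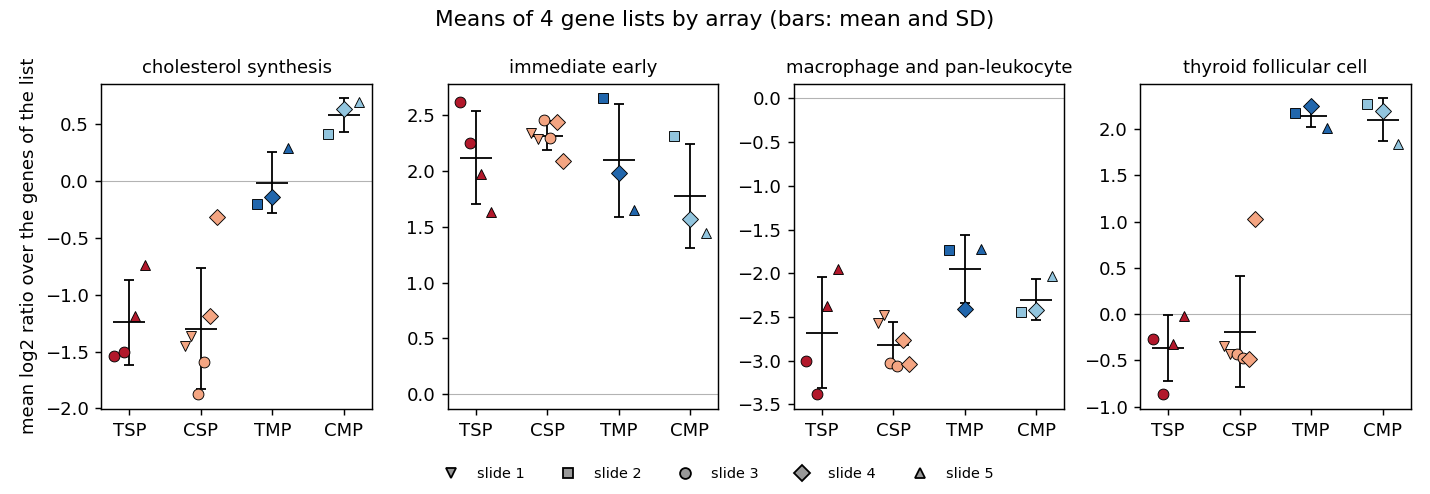
Mean level of the genes of 4 lists (cholesterol synthesis, immediate early, macrophage and follicular genes; log2 of sample over reference, vertical axis) on each array of TSP, CSP, TMP and CMP; 1 point is 1 array, the marker shape gives the slide, and bars are the mean and SD. For cholesterol synthesis the TMP arrays (-0.20 to 0.29) lie below the CMP arrays (0.41 to 0.69).

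The immediate early genes, transcription factors and regulators that cells switch on within minutes of a stimulus, had the most negative median, -0.57. Of 20 genes 2 had a positive interaction, and the median change was -0.27 in the side population and 0.40 in the main population. The mean of the list differed by 0.06 between TSP and CSP arrays of slide 3, opposite in sign to the side population median, and by 0.34, 0.41 and 0.21 between TMP and CMP arrays of slides 2, 4 and 5. Fos had levels of 5.73, 5.07 and 2.87 on the TMP arrays, against 4.76, 4.03 and 2.81 on the CMP arrays. Arrays of 1 slide ran together here, since slide 2 held the highest and slide 5 the lowest values of both groups. Fosl1, another partner of Jun in AP-1, had levels of 4.42, 4.67, 4.14 and 2.38 on the TSP arrays, against a lowest, median and highest value of 4.91, 5.28 and 5.51 on the CSP arrays. All TSP arrays were lower than all CSP arrays, and its interaction was -1.31 ± 0.56, and 0.80 in size without TSP 6. Relative to all genes the median of this list was 0.74 after scaling between arrays, so its direction depended on that choice.

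Lists of cell types were read in the same way. The follicular genes had a median of -0.24, with 2 of 16 positive, and -0.03 relative to all genes when CSP 6 was left out. The endothelial genes had a median of -0.33, with 3 of 22 positive, and this sign turned after scaling between arrays. The fibroblast genes had a median of 0.28, with 17 of 20 positive, and the matrix remodelling genes of 0.34, with 13 of 18 positive; both turned when TSP 1 and TSP 2 were kept. The inflammatory cytokine and chemokine genes had a median of -0.33, with 3 of 21 positive, and this sign turned in 4 of 32 alternatives, among them the one within slides. Calca, the calcitonin gene of C cells, had an interaction of -1.67 ± 0.73, with 1.5, 4.56, 4.09 and 4.31 on the TSP arrays, against a lowest, median and highest value of 4.72, 5.16 and 5.68 on the CSP arrays. TSP 3 was far below the other TSP arrays, and without it the interaction of Calca was 0.96 in size and the sign of the median of the C cell list turned. Timp2, an inhibitor of matrix proteases, had an interaction of 1.05 ± 0.44, and its change lay in the side population, at 0.87 ± 0.27.

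**Figure D5:**
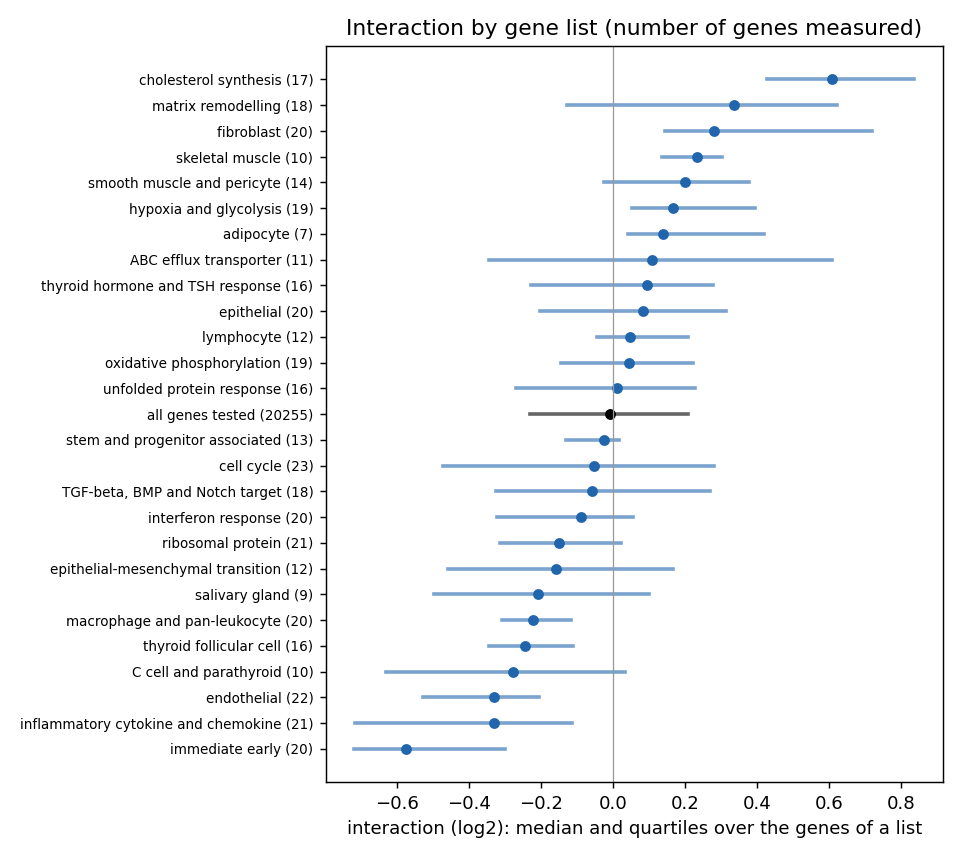
Median (point) and quartiles (bar) of the interaction (log2, horizontal axis) over the measured genes of each list, with the number of genes in brackets and all 20255 genes in black. The lists run from cholesterol synthesis at 0.61 to immediate early genes at -0.57.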

How the data were processed

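RNA from 18 samples was hybridised to Agilent arrays of the mouse genome with 2 colours. The scanner files deposited by the authors give intensity per spot and channel and a log10 ratio of red over green, per the file headers; the software was Agilent Feature Extraction, version 8.5.1.1 per the submitters' processing notes and 9.5.1.1 per the file headers. The series values deposited by the authors are log2 ratios for 33040 probes, with normalization not given in the sources used here (column medians 0.127 to 0.302); 10 columns were closest to the scanner file of their own sample and 8 to another of the same group, so they served as an alternative only.

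Mean signals were corrected with normexp (offset 50) and normalized within arrays by loess in limma 3.58.1 (R 4.3.3, with the data.table package at 1.17.8). Control spots had weight 0, outlier spots were removed, and the spots of each probe were averaged. A gene was represented by its brightest probe, among probes whose Cy5 signal was well above background on 3 or more of the 16 arrays. This gave 20255 genes, 19814 of them with a value on all 16 arrays. Probe positions are those of the file headers (mouse build mm7), and 22951 probes were matched to RefSeq by accession for symbols.

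One limma fit with 4 group means gave each change and the interaction, adjusted by Benjamini-Hochberg over all genes. It was run on simulated data without slide or replicate effects, which cannot show how it does where arrays deviate together. Intervals are 95% intervals of that fit. The genes named were to be, per sign, 14 chosen genes measured in all groups and 4 others by rank, the genes on both sides of the threshold, and called or defining members of each list; as the size of 1.5 left 2 genes, the 16 at a size of 1 were taken instead. Values of some single list genes are not reported here. The members, lists and rules were chosen with earlier results of these data known. Same-numbered arrays deviated together, with correlations of 0.67 to 0.81 for 3 TMP and CMP pairs and 0.22 to 0.49 for 4 TSP and CSP pairs, and the median was -0.25 between CSP and CMP, so a replicate number block within each population was added after the data were seen. Alternatives covered the arrays used, slide, replicate number, normalization, probe choice and filter. Figures were drawn with matplotlib 3.10.9 in Python 3.11.15.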

Additional observations from a re-analysis of the deposited data

Results flagged for a closer look

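Among 60 groups of arrays looked at, 4 held an array far from the others of its group by Dixon's criterion, which chance alone meets in about 1 of 20 groups. For LOC671351, TSP 6 was at -0.55 where the other TSP arrays lay between -1.51 and -1.39, and CSP 4 was at -0.16 where the other CSP arrays lay between -2.0 and -1.41. The mean of the follicular genes was 1.03 on CSP 6 and between -0.48 and -0.34 on the other CSP arrays. For Calca, TSP 3 was at 1.5 where the other TSP arrays lay between 4.09 and 4.56.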

How the results depend on the processing

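The interaction gave 0 calls under every alternative run but 1, and the main population change gave 0 calls under all of them. The exception was the fit within slides only, which uses fewer arrays, with 5 interaction calls, all higher. The side population change gave 18 calls (10 higher, 8 lower) with slide as a fixed block, 87 (70 higher, 17 lower) within slides only, 1 without slide 5, and 0 otherwise. The count of genes at a size of 1.5, 2 in the main setting, was between 1 and 6 with 1 array left out (6 without TSP 6; 4 each without CSP 3, CSP 5 or TMP 1; 1 without CSP 1 or CSP 4). It was 12 with all 18 arrays, 6 without slide 1, 46 with slide as a fixed block, 136 within slides only, 9 with a replicate block and 19 with the replicate block within each population. It was 4 after scaling between arrays, 76 with scanner-processed signals, 107 with the values of the authors, 1 with the mean of all probes and 0 for probes well above background on all arrays. It was 36 without slide 5, 47 without slides 1 and 5, 16 at a threshold of 1 and 0 at a threshold of 2. The alternatives without slide 5, without slides 1 and 5, and with the replicate block within each population were chosen after seeing the data, and the cause of these differences was not tested. With slide as a random block no such count was computed. Over 32 alternatives the interactions of the 16 genes gave 496 values, of which 0 turned sign and 36 moved by more than the spread between replicates. The alternatives with 1 of the 16 arrays left out could not turn a sign, because the rule asked for this. The others used largely the same arrays as the rule, so the count of 0 is no independent check. Median centring moved the median interaction of all genes to 0.23. Signal over background limits the dim genes: 15379 of 20255 genes were well above background on at least 50% of the arrays of each group.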

Other observations

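Genes of hypoxia and glycolysis, which take up glucose and turn it into lactate, had a median interaction of 0.17, with 15 of 19 genes positive and none called. Their mean level was between 0.24 and 0.58 on TSP arrays and between 0.09 and 0.74 on CSP arrays, and between -0.29 and -0.11 on TMP arrays and between -0.23 and 0.17 on CMP arrays. Relative to all genes the median of this list stayed between 0.10 and 0.52 over 32 alternatives, and that of cholesterol synthesis between 0.33 and 1.03; these were the lists of 25 whose sign did not turn. Interferon response genes had higher values after surgery in the side and in the main population for 18 of 20 genes each, none of them called, against 9877 and 10150 of 20255 genes in all. Their median interaction was -0.09, and its sign relative to all genes turned in 15 of 32 alternatives.

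TSP 1 and TSP 2, which were left out, had levels of -0.34 and 0.72 for Gpnmb, -2.09 and -1.57 for Dcpp1, and -1.06 and -0.48 for Cebpd.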
